A study of Homo sapiens with 8 samples.

Results

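The 6 genes described here, MSH6, MSH3, PMS2, PMS1, MLH3 and EXO1, encode proteins of DNA mismatch repair and were chosen by symbol from a table of 54261 genes. All 6 were counted in each of 8 RNA libraries from human intestinal cell lines. Total RNA, depleted of ribosomal RNA, was sequenced as 1 library each from the normal lines HIEC6 and NCM460 (n = 2) and from the untreated colorectal carcinoma (CRC) lines DLD1, HCT116 and HCT8 (n = 3). DLD1, HCT116 and HCT8 were also sequenced under hypoxia (n = 3), for which the oxygen level and duration are not given in the sources used here. Every culture was labelled as passage 5 and shared the same serum-supplemented medium. Each line had 1 column of counts per condition, the replicates of a group were different lines, and DLD1 and HCT8 are known to share their origin in 1 tumor.

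Mismatch repair removes base mismatches and small insertion or deletion loops left behind the replication fork. MutS homologs bind the mispaired site, MutL homologs are recruited and nick the new strand, an exonuclease digests the nicked strand, and replicative polymerases fill the gap. Cells that lose the pathway gain and lose repeat units at microsatellites, a state known in a subset of colorectal tumors and in the lines DLD1, HCT8 and HCT116. DLD1 is known for truncating mutations of MSH6 and HCT116 for a frameshift in MSH3, and the counts used here do not show mutations or protein.

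Library totals ran from 45519306 to 57374239 counts, so 3 counts corresponded to at most 0.0659 CPM (counts per 1000000 counts of the library), and the lowest member value rested on 381 counts. The library labelled NCM460 resembled HCT116 more than the other normal line, with a Pearson r over 21647 genes of 0.989 with HCT116 and 0.876 with HIEC6 (log2 of CPM + 1 after TMM scaling). Whether it holds the line of its label was not tested, and NCM460 in what follows stands for the library so labelled. For that reason results against normal cells are given with HIEC6 alone and with both lines. HIEC6 had 7 of 10 intestinal epithelial markers above 3 counts, as did untreated HCT116, and its epithelial sum of 8084 CPM, nearly all KRT8 and KRT18, lay within the range of the untreated CRC lines (4585 to 9971 CPM). CDX1 and KRT20 were at 0 in HIEC6 and CDX2 at 3 counts, and CDX1 was also at 0 in DLD1, HCT116 and NCM460. Of the 7 markers above 3 counts in HIEC6, ESRP1 had 5 counts (11400 in untreated HCT116) and VIL1 4 (2 in untreated HCT116). KRT19 was at 0.987 CPM in HIEC6 against 738 to 855 CPM in the untreated CRC lines, and CLDN7 at 3.47 against 152 to 241 CPM. The 10 mesenchymal markers summed to 2119.9 CPM in HIEC6, against 12.05 to 37.4 CPM in the untreated CRC lines and 107.4 CPM in NCM460. Most of that sum was VIM (1223 CPM) and COL5A1 (723.3 CPM), while COL1A2 (0.458 CPM) was below all 3 untreated CRC lines, COL3A1 (1.16 CPM) below DLD1 and HCT116, and DCN and THY1 had 4 and 2 counts. The part of these differences in the results below was not tested. Under hypoxia, all 10 genes of a list of hypoxia targets were higher over the CRC lines together, with a median log2 fold change of 3.68 (edgeR, hypoxia against untreated). By line, BNIP3 was close to absent in DLD1 (0 counts untreated, 5 under hypoxia) and HCT8 (0 and 1), and VEGFA was 1.14-fold higher in DLD1. In the labels, a code before the line's name was the same for all 3 hypoxia libraries and another for all 3 untreated CRC libraries and HIEC6, so what the code marks cannot be told apart from treatment. NCM460 had the code of the untreated libraries and, with the hypoxia libraries of DLD1 and HCT116, a further code.

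The members lie on 5 chromosomes, and the positions that follow are those of the reference transcript in GENCODE lifted to GRCh37. MSH6 (ENSG00000116062) runs from 48010284 to 48034092 on chromosome 2 (plus strand), in 10 exons, and its last 34 bases overlap the last exon of FBXO11 on the other strand. MSH3 (ENSG00000113318) runs from 79950471 to 80172634 on chromosome 5 (plus strand), in 24 exons. PMS1 (ENSG00000064933) runs from 190649176 to 190742355 on chromosome 2 (plus strand), 111 bases from the start of the divergent gene ORMDL1. PMS2 (ENSG00000122512) runs from 6010556 to 6048680 on chromosome 7 (minus strand), 223 bases from the start of the divergent gene AIMP2. MLH3 (ENSG00000119684) runs from 75480478 to 75518170 on chromosome 14 (minus strand), and EXO1 (ENSG00000174371) from 242011506 to 242053241 on chromosome 1 (plus strand). Reads in the overlap of MSH6 and FBXO11 could not be assigned to a strand here, since the strand setting of the counting is not given in the sources used here.

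Promoter sequence was available for 6 of 6 members in the RefSeq table (GRCh38.p14, 250 bases before to 50 bases after the start). E2F factors are known as regulators of genes used in S phase, and their sites were searched on both strands as TTTCCCGC, TTTCGCGC, TTTGCCGC and TTTGGCGC. At least 1 match was present in 3.33% of all 27305 promoters and in those of MSH6, MSH3, PMS2 and EXO1, while those of PMS1 and MLH3 held none of these letters. MSH3 held 2 matches and the other 3 genes 1 each. The windows of MSH6, PMS2 and EXO1 are shown as examples of the letters matched. They are printed on the strand of the gene with the match in capitals.
MSH6 promoter, chr2:47783137-47783166: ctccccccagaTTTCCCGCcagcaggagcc
PMS2 promoter, chr7:6009131-6009160: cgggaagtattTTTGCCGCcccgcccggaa
EXO1 promoter, chr1:241848197-241848226: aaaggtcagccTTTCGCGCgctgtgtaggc
Counted from the start at 1, the matches began at 4 (MSH6), -43 (PMS2) and 5 (EXO1). The short core of hypoxia response elements (ACGTG or GCGTG) occurred in 5 of the members' promoters, all but that of EXO1, against 48.4% of all promoters.

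MSH6, the mismatch-binding subunit for base mismatches and short loops, was lowest in DLD1 and HCT8. Untreated CPM was 186.4 in HIEC6, 153.1 in NCM460, 106.2 in HCT116, 30.4 in DLD1 and 25.1 in HCT8. The hypoxia libraries had 71.1 CPM (HCT116), 27.5 CPM (DLD1) and 19.7 CPM (HCT8). Both HCT116 libraries lay above all 4 libraries of DLD1 and HCT8, with no overlap, and HIEC6 and NCM460 lay above every CRC library. In bulk RNA, fewer expressing cells and less RNA per cell cannot be told apart.

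MSH3, which binds larger insertion or deletion loops, was lowest among the CRC lines in HCT116, where MSH6 was highest. DLD1 lay above HCT8 for both genes, untreated and under hypoxia. It was at 72.8 CPM in DLD1, 65.5 CPM in HCT8 and 13.1 CPM in HCT116 without treatment, and at 61.6, 50.5 and 10.4 CPM under hypoxia. HIEC6 had 40.5 CPM and NCM460 8.36 CPM. The 2 HCT116 libraries and NCM460 were thus the 3 lowest of the 8 libraries for MSH3, and HIEC6 lay between them and the other CRC libraries.

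The balance between both MutS genes, as the ratio of MSH6 to MSH3 counts, fell on either side of 1. It was 18.3 in NCM460, 8.09 in HCT116, 6.81 in HCT116 under hypoxia and 4.60 in HIEC6. In DLD1 and HCT8 it was between 0.384 and 0.447 in all 4 libraries. Per kilobase of reference transcript (4265 bases for MSH6, 4443 bases for MSH3), MSH6 was the highest of the 6 members in HIEC6, NCM460 and both HCT116 libraries, at 16.7 to 43.7 CPM per kb. It was the lowest of the 6 in all 4 libraries of DLD1 and HCT8, at 4.62 to 7.12 CPM per kb. MSH3 was the highest in both HCT8 libraries (14.7 and 11.4 CPM per kb) and the lowest in untreated HCT116 (2.96 CPM per kb) and NCM460 (1.88 CPM per kb).

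**Figure D1:**
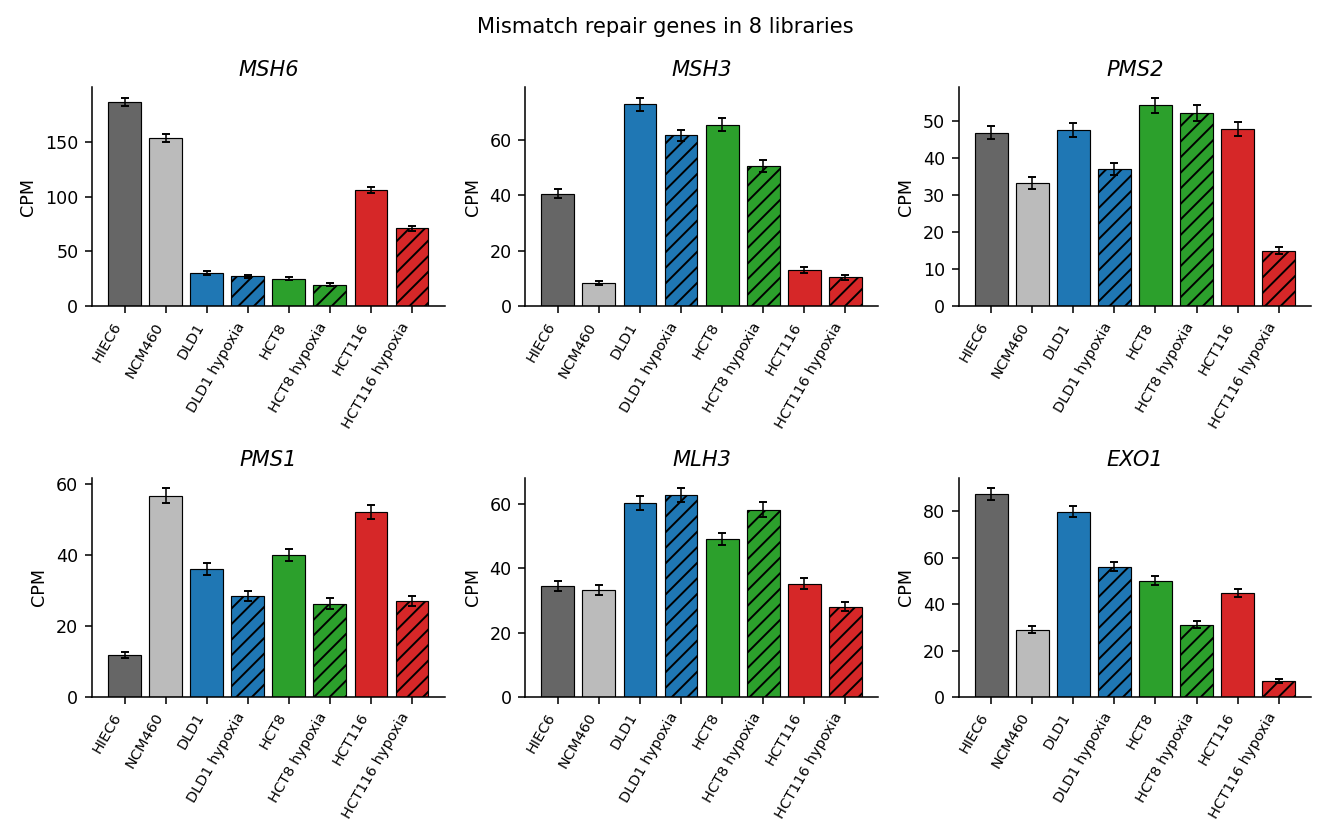
Level of each mismatch repair gene (CPM, linear axes from 0, a scale per panel) in the 8 libraries, hatched under hypoxia; error bars are exact 95% Poisson intervals of the count and cover counting error only. MSH6 is low in all 4 libraries of DLD1 and HCT8 (19.7 to 30.4 CPM), and MSH3 is low in NCM460 and both HCT116 libraries (8.36 to 13.1 CPM).

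Among the MutL homologs, PMS2 supplies the nicking endonuclease of the main MutL complex, MLH3 forms a second endonuclease best known from meiosis, and PMS1 forms a complex whose part in repair is less clear. PMS2 varied little among the untreated CRC lines, at 47.6 CPM (DLD1), 47.8 CPM (HCT116) and 54.3 CPM (HCT8), and HIEC6 had 46.9 CPM. NCM460 was lower at 33.4 CPM, and the lowest of all was HCT116 under hypoxia at 15.0 CPM, against 37.2 CPM (DLD1) and 52.2 CPM (HCT8) in the other hypoxia libraries. HIEC6 stood apart for PMS1, with 11.7 CPM against 35.9 CPM (DLD1), 40.1 CPM (HCT8), 52.1 CPM (HCT116) and 56.7 CPM (NCM460).

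PMS1 under hypoxia was within a narrow range, at 26.3 CPM in HCT8, 27.1 CPM in HCT116 and 28.4 CPM in DLD1. MLH3 was at 60.4 CPM in DLD1, 49.0 CPM in HCT8 and 35.3 CPM in HCT116, and at 62.8, 58.3 and 28.0 CPM under hypoxia. The 2 HCT116 libraries lay near HIEC6 (34.4 CPM) and NCM460 (33.2 CPM) and below all 4 libraries of DLD1 and HCT8.

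EXO1, the exonuclease that digests the nicked strand, was highest in HIEC6 (87.5 CPM) and DLD1 (79.8 CPM). HCT8 had 50.1 CPM, HCT116 44.8 CPM and NCM460 29.0 CPM. Under hypoxia it was at 56.1 CPM in DLD1, 31.1 CPM in HCT8 and 6.88 CPM in HCT116, where 381 reads were counted.

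The difference between the CRC lines was tested over their 6 libraries, with HCT116 set against the mean of DLD1 and HCT8 and treatment as a term. MSH6 was higher in HCT116, with a mean of 88.7 ± 24.9 CPM (SD, n = 2 libraries) against 25.7 ± 4.53 CPM (SD, n = 4) and a log2 fold change of 2.07 (SE 0.18, edgeR quasi-likelihood adjusted p = 7.11e-05). MSH3 was lower in HCT116, at 11.8 ± 1.91 CPM (SD, n = 2) against 62.6 ± 9.29 CPM (SD, n = 4), with a log2 fold change of -2.11 (SE 0.22, edgeR adjusted p = 1.88e-04). MLH3 was lower in HCT116 with a log2 fold change of -0.57 (SE 0.19, edgeR adjusted p = 0.0496), and this call was lost when either untreated DLD1 or HCT8, or any 1 of the hypoxia libraries, was left out (adjusted p of 0.12 to 0.22), with no filter on low counts (0.0646) and without the treatment term (0.0963). The libraries of DLD1 and HCT8 share an origin and both HCT116 libraries come from 1 line. In this fit the untreated and hypoxia libraries of a line stood in for its repeats, since no condition of a line was repeated. These p-values thus rest on what the line and treatment terms left over, not on a spread between repeat cultures or between tumors. The SD of each group takes in the difference between untreated and hypoxia libraries.

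The other members did not pass in this comparison. EXO1 had a log2 fold change of -1.15 (SE 0.39, edgeR adjusted p = 0.0521), and without untreated HCT116 the value was -2.11 with an adjusted p = 4.48e-04, without untreated DLD1 -1.48 with an adjusted p = 0.0255. EXO1 also passed with DESeq2 (adjusted p = 0.0181), limma-trend, library totals and no filter on low counts. PMS1 had 0.52 (SE 0.19, edgeR adjusted p = 0.073) and PMS2 -0.49 (SE 0.28, edgeR adjusted p = 0.221). With untreated HCT116 left out PMS2 was at -1.06 with an edgeR adjusted p = 0.00879, and with HCT116 under hypoxia left out at 0.048. In all, 3 of 6 members passed the adjusted threshold of 0.05, 1 higher and 2 lower in HCT116, where 32.8% of the 21045 genes tested passed (18.4% higher and 14.4% lower). With untreated HCT116 left out 5 of 6 members were called (37.7% of genes), and DESeq2 also called 5 of 6 (36.8% of genes), with PMS1 and EXO1 added. Both HCT116 libraries were above all 4 others for 1 member (MSH6) and below all 4 for 2 (MSH3 and MLH3), against 14.1% and 25.4% of all genes tested. The MSH6 and MSH3 values kept their call and direction under each of the 13 alternatives run. With library totals in place of TMM scaling, the median of all genes moved from -0.02 to -0.31, and the genes called higher or lower moved from 3874 and 3037 to 2844 and 4026.

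FBXO11, which meets the end of MSH6 on the other strand, was read from the same fit. It did not follow MSH6, with 116.1 CPM in DLD1, 72.5 CPM in HCT8 and 93.3 CPM in HCT116 without treatment and a log2 fold change of 0.25 (SE 0.18, edgeR adjusted p = 0.311) in HCT116 against DLD1 and HCT8.

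Partner genes of the pathway were also compared between the lines. Of 15 genes for strand excision and gap filling, 4 were lower in HCT116 and 0 higher, against 14.4% of all genes called lower, and their median log2 fold change was -0.38 against -0.02 for all genes. They were POLD3, a polymerase delta subunit (-2.12, edgeR adjusted p = 0.00273), the sliding clamp PCNA (-1.32, edgeR adjusted p = 0.0412), RPA3 of the single-strand binding complex (-0.68, edgeR adjusted p = 0.0447) and HMGB1 (-0.61, edgeR adjusted p = 0.0329). Of 5 recruitment and helicase genes 1 was lower, the helicase MCM8 (-1.35, edgeR adjusted p = 0.0213), a count near the share of all genes. These values take in both HCT116 libraries. Between untreated HCT116 and untreated DLD1, log2 CPM ratios were -1.51 (POLD3), -0.80 (PCNA), -0.49 (RPA3), -0.65 (HMGB1) and -0.67 (MCM8). Between HCT116 under hypoxia and untreated HCT116 they were -2.09, -2.83, -1.46, -0.54 and -2.23 in the same order. Among the meiotic MutS homologs, MSH4 had 478 and 522 counts in the DLD1 libraries and at most 148 in the others, and MSH5 was listed at 0 in all 8 libraries.

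The microsatellite-unstable lines were then compared with HIEC6. Relative to HIEC6, MSH6 was 6.14-fold lower in DLD1, 7.42-fold lower in HCT8 and 1.75-fold lower in HCT116, and EXO1 was lower in all 3 lines, by 1.10-fold in DLD1 to 1.95-fold in HCT116. PMS1 was higher in all 3, by 3.06-fold in DLD1, 3.41-fold in HCT8 and 4.43-fold in HCT116. Its ratios were at the 79.0, 76.0 and 81.7 percentile of all genes in these pairs, and those of MSH6 at the 9.54, 7.66 and 22.8 percentile. The median gene itself had a log2 ratio to HIEC6 of 0.28 in DLD1, 0.48 in HCT8 and 0.27 in HCT116. MSH3 differed in direction, at 1.80-fold and 1.62-fold higher in DLD1 and HCT8 and 3.09-fold lower in HCT116. HIEC6 lay above all 3 CRC lines for 2 members (MSH6 and EXO1) and below all 3 for 3 (PMS1, PMS2 and MLH3), against 22.7% and 43.1% of the 18994 genes tested. For PMS2 in DLD1 and HCT116 and for MLH3 in HCT116, the 95% counting interval of the ratio to HIEC6 included 1.

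**Figure D2:**
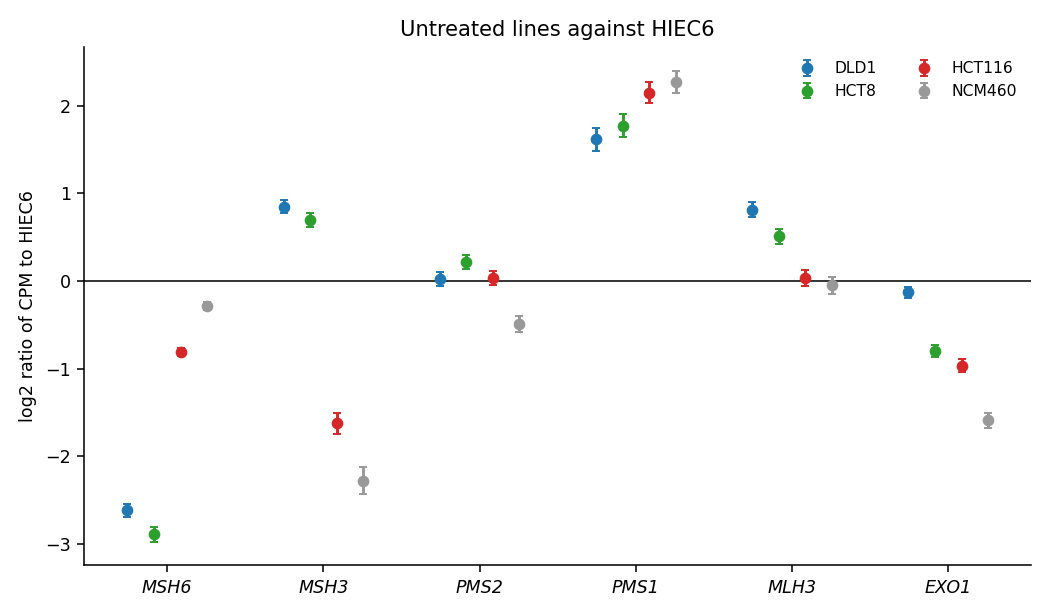
The log2 ratio of CPM to HIEC6 for the 6 members in untreated DLD1, HCT8, HCT116 and NCM460, with exact 95% intervals for the ratio of 2 counts (counting error only). PMS1 is above HIEC6 in all 4 lines (1.61 to 2.27), while for MSH3 the lines lie on both sides of 0 (-2.28 to 0.84).

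Tested over these 4 libraries, 0 of 6 members and 0 of 18994 genes (0.0%) had an edgeR adjusted p-value under 0.05. At an unadjusted p under 0.05 there were 2994 genes (15.8%) and 1 member, PMS1, with a log2 fold change of 1.61 (SE 0.46, edgeR adjusted p = 0.262). DESeq2 called 4206 genes (22.1%) and the same 1 member, PMS1 (1.56, adjusted p = 0.00163). The log2 fold change of MSH6 was -2.01 (SE 0.96, edgeR adjusted p = 0.393) and rested on the spread between the CRC lines, from -1.64 to -3.05 with 1 CRC line left out. The remaining edgeR values were -0.85 for EXO1, 0.22 for MLH3, -0.18 for PMS2 and 0.03 for MSH3. HIEC6 was 1 library, assumed in this fit to vary as the CRC lines did.

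With NCM460 added to the normal group, PMS1 no longer separated the groups, at 42.7 ± 8.37 CPM (SD, n = 3) in the CRC lines and 34.2 ± 31.8 CPM (SD, n = 2) in the normal lines. MSH6 was at 53.9 ± 45.4 CPM (SD, n = 3) against 169.7 ± 23.6 CPM (SD, n = 2), with a log2 fold change of -1.81 (SE 0.75, edgeR adjusted p = 0.999). Here edgeR called 0 of 19964 genes (0.0%), with 542 (2.71%) and 0 members at an unadjusted p under 0.05, and DESeq2 called 131 genes (0.656%) and 0 members. Between NCM460 and HCT116, 0 of 6 members differed by more than 2-fold in either direction, against 9.0% of genes past 2-fold lower and 9.18% higher, and the member log2 ratios ran from -0.65 (MSH3) to 0.53 (MSH6).

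Under hypoxia, 5 of the 6 members had lower CPM in all 3 lines, and the largest decrease was that of EXO1 in HCT116. EXO1 was 1.42-fold lower in DLD1, 1.61-fold lower in HCT8 and 6.51-fold lower in HCT116, where its log2 ratio was at the 3.82 percentile of all genes. PMS1 was 1.26-fold, 1.52-fold and 1.92-fold lower in DLD1, HCT8 and HCT116. PMS2 was 1.28-fold lower in DLD1 and 3.18-fold lower in HCT116, and in HCT8 its ratio of 0.961 had a counting interval that included 1 (0.910 to 1.02). MSH6 was 1.10-fold to 1.49-fold lower and MSH3 1.18-fold to 1.30-fold lower. MLH3 was the exception, with ratios of 1.04 in DLD1, 1.19 in HCT8 and 0.793 in HCT116.

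Read against all genes, lower CPM in all 3 pairs was found for 26.4% of 21045 genes. In HCT116 the median gene itself had a log2 ratio of -0.35, against 0.0002 in DLD1 and 0.01 in HCT8, and 25.5% of genes were more than 2-fold lower (5.73% in DLD1, 9.59% in HCT8). Relative to the median gene of each pair, 4 of 6 members (MSH6, PMS1, PMS2 and EXO1) were lower in all 3 pairs, against 22.8% of genes, since MSH3 in HCT116 then lay at 0.02. MLH3 in HCT116 lay at 0.01 on that scale, and EXO1 at -2.35 and PMS2 at -1.32. In HCT8 PMS2 lay at only -0.07, and the counting interval of its CPM ratio there (0.910 to 1.02) included 1. Of the 4 members lower on that scale, MSH6, PMS2 and EXO1 held an E2F match and PMS1 held none. Of the others, MSH3 held 2 matches and MLH3 none. Any part of these sites in the hypoxia values was not tested. More than 2-fold lower levels were seen for 2 members in HCT116, EXO1 and PMS2, and for 0 members in DLD1 and HCT8.

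**Figure D3:**
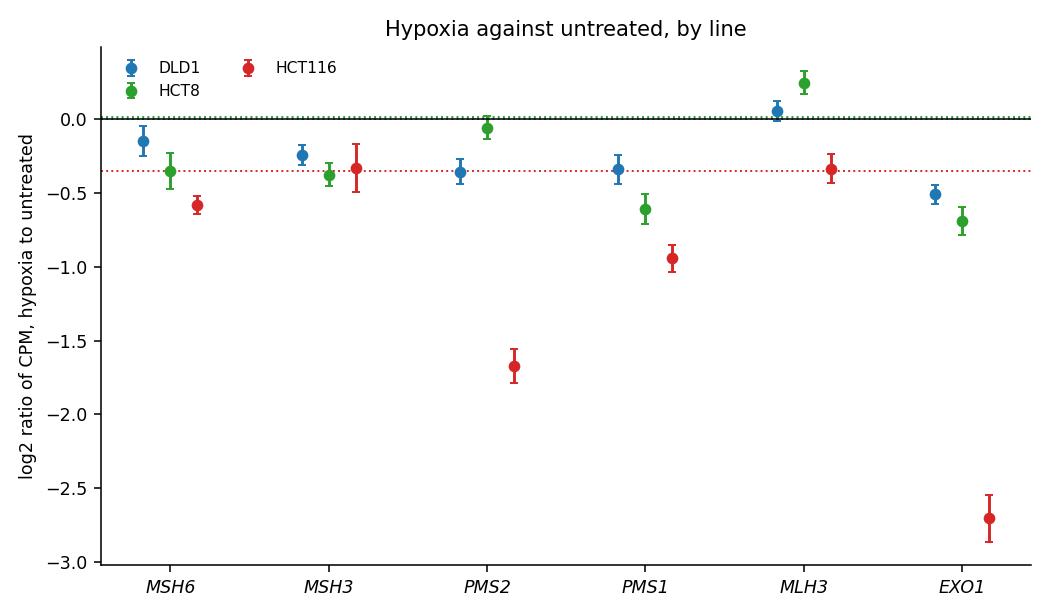
The log2 ratio of CPM, hypoxia to untreated, of each member in each CRC line, with exact 95% intervals for the ratio of 2 counts (counting error only, 1 library a side); dotted lines mark the median of all genes in each line. EXO1 (-2.70) and PMS2 (-1.67) in HCT116 lie farthest from 0, and MLH3 lies above 0 in HCT8 (0.25).

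Across the lines, hypoxia was tested without and with the line as a block. Without the block, edgeR called 0 of 6 members and 0 of 21045 genes (0.0%), with 607 genes (2.88%) and 0 members at an unadjusted p under 0.05, and DESeq2 called 51 genes (0.242%) and 0 members. With the line as a replicate block, edgeR called 200 genes (0.95%) and 0 members, with 2 members, EXO1 and PMS1, lower at an unadjusted p under 0.05 (18.5% of genes, 8.58% lower). EXO1 then had a log2 fold change of -1.14 (SE 0.35, edgeR adjusted p = 0.152) and PMS1 one of -0.50 (SE 0.19, edgeR adjusted p = 0.21). With the HCT116 pair left out, EXO1 was at -0.59 (SE 0.17, edgeR adjusted p = 0.082). DESeq2 with the block called 1666 genes (7.92%, with 3.38% lower) and 1 member, EXO1 (-1.12, adjusted p = 0.0383). The other blocked edgeR values were -0.55 (SE 0.26) for PMS2, -0.22 (SE 0.17) for MSH6, -0.18 (SE 0.18) for MSH3 and 0.12 (SE 0.18) for MLH3. None of these 4 had an adjusted p-value under 0.05 with the block in edgeR or in DESeq2.

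Genes that act with the members in DNA synthesis had lower CPM in the same pairs. All 11 of a list of replication licensing genes, which load and start the replicative helicase, were lower in all 3 lines, as were 12 of 15 gap-filling partners, against 26.4% of all genes. In HCT116 their median log2 ratios were -2.33 and -1.46, against -0.76 for the members, and in DLD1 they were -0.19 and -0.13, against -0.29. In HCT8 the medians were -0.71 (licensing), -0.43 (gap filling) and -0.36 (members). With the line as a block, 10 of 11 licensing genes and 7 of 15 gap-filling genes were lower at an unadjusted p under 0.05 (8.58% of all genes), and edgeR called 0 of either list at the adjusted threshold. DESeq2 with the block, which called 3.38% of all genes lower, called 2 licensing genes lower, MCM6 (-0.94, adjusted p = 0.0093) and CDC6 (-0.90, adjusted p = 0.0279), and 4 gap-filling genes, PCNA (-1.20, adjusted p = 0.0297), RFC4 (-0.93, adjusted p = 0.00718), RFC3 (-0.82, adjusted p = 0.0263) and RPA3 (-0.73, adjusted p = 0.0153). The 5 mitosis and proliferation markers summed to 956.5 CPM in HCT116 under hypoxia and 1102.6 CPM without it. In HCT8 their sum was also lower under hypoxia (1441.7 against 1580.4 CPM), and in DLD1 it was higher (1535.2 against 1438.1 CPM). MKI67 and TOP2A made up most of these sums, and CCNB1 and AURKB, the 2 of the 5 that were lower in all 3 pairs, had log2 ratios of -0.97 and -0.76 in HCT116, -0.84 and -0.42 in HCT8 and -0.27 and -0.13 in DLD1. The 10 mesenchymal markers summed to 94.7 CPM (DLD1), 167.7 CPM (HCT116) and 25.9 CPM (HCT8) under hypoxia, above the untreated library of each line. Of the markers with at least 10 counts in a library of the pair, 10 of 10 were higher in DLD1 and 9 of 9 in HCT116. In HCT8 4 of 8 were higher and 4 lower, with PDGFRB at 8.46 against 3.67 CPM untreated and VIM at 0.22 against 1.03 CPM. The part of either list in the member values was not tested.

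**Figure D4:**
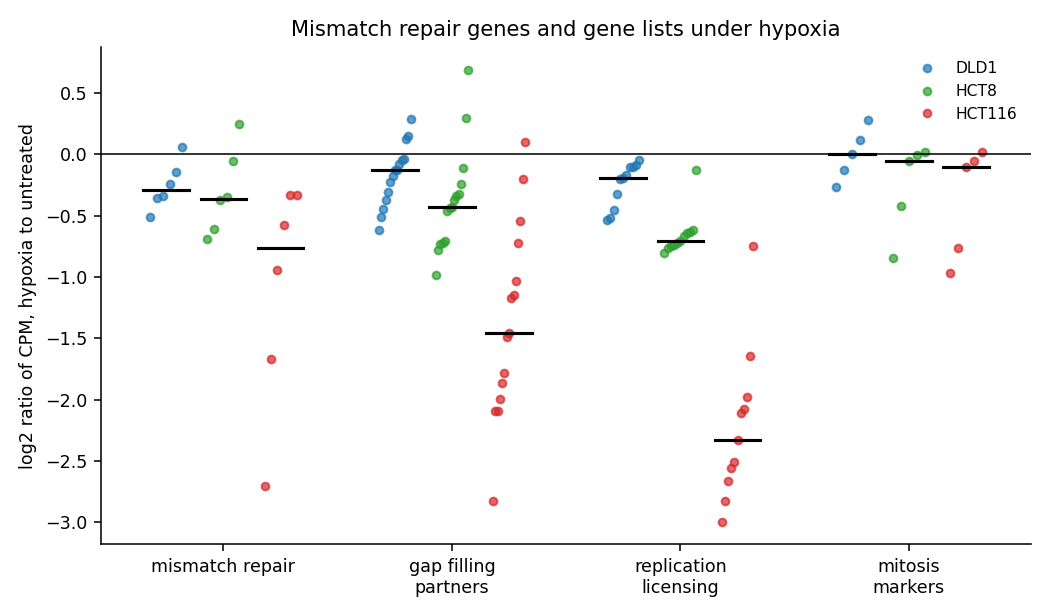
The log2 ratio of CPM, hypoxia to untreated, for the 6 members, 15 gap-filling partners, 11 replication licensing genes and 5 mitosis markers, 1 point per gene and line, with a bar at each median. The HCT116 medians are -0.76, -1.46 and -2.33 for the first 3 lists, below those of DLD1 and HCT8, and that of the mitosis markers is -0.10.

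Divergent neighbors of PMS2 and PMS1 could also be set beside them under hypoxia. AIMP2, a scaffold of the tRNA synthetase complex that starts next to PMS2, was at 70.0, 73.8 and 56.8 CPM in untreated DLD1, HCT8 and HCT116 and at 50.1, 26.9 and 12.7 CPM under hypoxia. With the line as a block its log2 fold change was -1.23 (SE 0.27, edgeR adjusted p = 0.0808; DESeq2 adjusted p = 0.0029). In HCT8 AIMP2 was thus lower under hypoxia while PMS2 was within counting error. ORMDL1, beside PMS1, had a blocked value of -0.49 (SE 0.22, edgeR adjusted p = 0.275).

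The values of PMS2 carry a further limit, since PMS2 has near-identical copies in the genome and how reads with several matches were counted is not given in the sources used here. The 13 rows of PMS2CL and PMS2P copies together had 1303 counts in HIEC6 and 1977 to 2437 counts in the other 7 libraries. PMS2 itself took 67.1% of the sum of PMS2 and its copies in HIEC6, 43.6% in NCM460 and 50.7% to 59.1% in the untreated CRC lines. Under hypoxia its share was 49.3% in DLD1, 52.7% in HCT8 and 25.5% in HCT116. The HCT116 share was the lowest of the 8 libraries, and there PMS2CL had 1337 counts against 777 without hypoxia.

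Summed with its copies, PMS2 in the HCT116 pair had a log2 ratio of -0.67 in place of -1.67, and in the HCT8 pair 0.11. PMS2CL alone was 1.62-fold higher in HCT116 and 1.96-fold higher in HCT8 under hypoxia, with a blocked log2 fold change of 0.71 (SE 0.27, edgeR adjusted p = 0.211). In the comparison of HCT116 with DLD1 and HCT8, PMS2CL was higher in HCT116 (1.20, SE 0.27, edgeR adjusted p = 0.0108), and adding the copies moved the PMS2 value from -0.49 to 0.051.

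**Figure D5:**
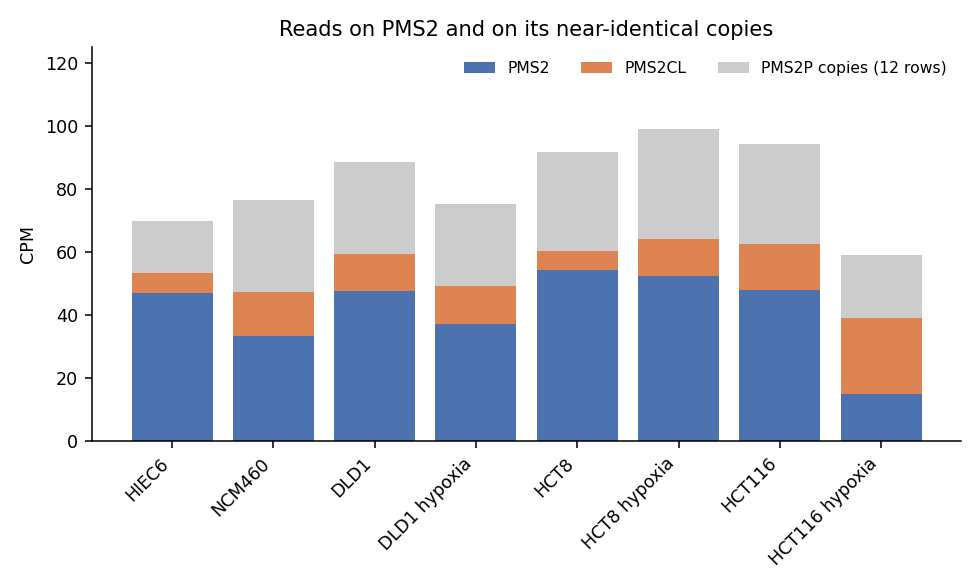
Stacked CPM of PMS2, PMS2CL and the 12 PMS2P rows in each library, on an axis from 0. PMS2 makes up 25.5% of the stack in HCT116 under hypoxia and 43.6% to 67.1% in the other libraries.

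Among 14889 genes with a mean above 1 CPM, those whose pattern over the 8 libraries was most like each member were ranked by Pearson r of log2(CPM + 1) after TMM scaling. These are descriptions over libraries that share lines. EXO1 was closest to MRM2 (0.997), TSR2 (0.995) and CLSPN (0.990), and MSH3 to TENM3 (0.994), RPSAP15 (0.989) and TNFSF13 (0.988). MSH6 was closest to NBPF8, LINC01420 and ABCC2 (each 0.989). PMS2 was closest to TRMT61B (0.989), PMS1 to TXNL4A (0.983) and MLH3 to CFLAR (0.989). Among the members, r ran from -0.76 (MSH6 with MLH3) to 0.85 (PMS2 with EXO1), and it was -0.65 for MSH6 with MSH3 and 0.84 for MSH3 with MLH3.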

How the data were processed

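Total RNA of 8 cell line libraries was sequenced after removal of ribosomal RNA. The authors deposited raw counts per gene for 54261 genes, without normalization. The study's methods name GRCh37.p13 and the submitters' processing notes name GRCh38 and HISAT2 2.0.4; the counter, annotation, strand and handling of multiple matches are not given in the sources used here. All 8 columns were matched to samples by title (0 left aside, 0 rows without a gene name). Totals were 45519306 to 57374239 counts, and intervals and floors of 3 counts cover counting error only.

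Genes reaching 10 counts in 2 or more libraries of a fit were tested with edgeR 4.0.16 (quasi-likelihood, TMM, Benjamini-Hochberg, threshold 0.05) in R 4.3.3. The standard error is the log2 fold change over the root of F. Alternatives were DESeq2 1.42.0, limma 3.58.1 (limma-trend), other scalings and filters, added PMS2 copies, left-out libraries and blocks; blocked fits with each line's pair left out were chosen after seeing the data. Pair ratios have exact 95% binomial intervals. Medians and percentiles of pair ratios, and shares of genes past 2-fold or relative to the median gene, add 0.5 counts. Shares of genes with CPM above or below that of other libraries add no counts. The procedure was tested on simulated counts.

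The replicate number under hypoxia is the cell line and pairs the libraries (same-line deviations correlated at 0.82 to 0.857, different lines at -0.611 to -0.0599). Deviations were taken from the mean of the 3 lines within a treatment, so the values between different lines are partly fixed by the same-line values. Members and lists were chosen with earlier results of these data known. The 6 members were always named, up to 4 genes per list by largest fold change, and 3 genes by likeness to each member. Some genes of the pathway are not reported here.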

Additional observations from a re-analysis of the deposited data

Results flagged for a closer look

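MLH3 moved in opposite directions under hypoxia in different lines. Its log2 CPM ratio was -0.34 in HCT116 (95% counting interval -0.43 to -0.24) and 0.25 in HCT8 (0.17 to 0.33), with 1 library on each side. The difference between the lines was not tested. The median gene of the HCT116 pair was at -0.35, and relative to the median of each pair the values were 0.01 in HCT116 and 0.24 in HCT8.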

How the results depend on the processing

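MSH6 and MSH3 kept direction and call between HCT116 and the other CRC lines in all 13 alternatives. Of 316 member values recomputed over all comparisons, 279 kept direction and side of the threshold, 20 changed sign, 10 gained and 7 lost a call. The cause was not tested where it is not named. Against HIEC6, the genes called were 4206 with DESeq2, 42 with no filter beyond 1 count and 85 with limma-trend, against 0, and members called were 1 with DESeq2. Against both normal lines DESeq2 called 131. Under hypoxia 51 genes were called with DESeq2, 200 with the line as a replicate block, 1666 with the block and DESeq2 (1 member), and with the block 292, 738 and 6 without the DLD1, HCT116 and HCT8 pair; the block changed no other member call. Between HCT116 and the others, 4601 genes were called with 10 counts in every library, 4337 to 7575 with 1 library left out, and 5 members with DESeq2, 2 to 5 with 1 library left out.

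Sign changes against HIEC6 were MSH3 at -0.026 (DESeq2) and -0.29 (limma-trend), -0.39 to 0.47 with 1 library left out, and PMS2 at 0.083 (library totals) and 0.13 (copies added). Against both normal lines the left-out range was -0.50 to 1.61 for PMS1, -0.18 to 0.47 for PMS2 and -0.85 to 0.91 for EXO1. The block by title number pairs different lines that share only a number; it called 0 genes and gave EXO1 0.11. Under hypoxia without the block the range was -1.27 to 0.83 for MSH6, -0.70 to 0.17 for MSH3 and -0.062 to 0.35 for MLH3. In the comparison of HCT116 with DLD1 and HCT8, the PMS2 value was 0.051 with copies added and -1.06 to 0.048 with 1 library left out. Library totals moved the median of all genes from 0.19 to 0.44 against HIEC6 and from -0.0048 to 0.17 against both normal lines, and upper-quartile scaling from 0.19 to 0.35 against HIEC6. Leaving out HIEC6 from the fit against HIEC6 could not be run, since no normal library is left.

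With 1 library per line and condition, differences between lines rest on no repeat of a line. Among the CRC lines, hypoxia coincides with a code in the labels. The lowest count of a member in a library was 381. Counts on PMS2 depend on reads shared with its copies.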
